A study of Mus musculus with 15 samples.

Results

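Pttg1, Spc25, Champ1 and Ninl are 4 genes with roles in the separation of chromosomes, and their promoters were followed by ATAC-seq in mouse pancreatic islets. ATAC-seq uses the Tn5 transposase to cut and tag accessible DNA. Every peak that the authors assigned to these gene symbols was taken from the 4 deposited tables, which gave 26 of 41774 listed peaks. Merged over the tables by overlap, the 26 peaks were 8 regions, and the genes were 4 of 10268 with a listed peak. The 4 genes were chosen from the deposited folds of these same comparisons, so their folds and calls are given as a description and support no inference of their own. All 4 are called by the symbols that the authors gave to the peaks.

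The islets came from male mice aged 3 months, 15 in all and 1 library each. All of them carried Arid1a Fl/Fl alleles and MIP-rtTA, a doxycycline-dependent activator under the mouse insulin promoter, and the protocol gave the mice 1 g/L doxycycline in drinking water for 2 weeks, with PPx 1 week after it was withdrawn. KO-labelled mice had TRE-Cre in addition, which places Cre under the control of that activator, so deletion is directed to beta cells while islets hold other endocrine, vascular and immune cells too. Groups were KO-labelled islets 6 days after partial pancreatectomy (PPx, n = 4), control islets 6 days after PPx (n = 4), KO-labelled islets before PPx (n = 3) and control islets before PPx (n = 4). PPx removes part of the pancreas, after which the remaining beta cells are driven to divide.

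Securin, the product of Pttg1, holds the protease separase inactive until the anaphase-promoting complex marks securin for destruction, and separase then cuts the cohesin that joins sister chromatids. SPC25 is a subunit of the NDC80 complex, which binds spindle microtubules at the kinetochore. CHAMP1 is a zinc finger protein needed in human cells for stable attachment of kinetochores to microtubules, and it binds the REV7 protein encoded by Mad2l2. NINL, the ninein-like protein, is a centrosomal protein that takes part in the nucleation of microtubules in human cells. In adult islets few beta cells divide, and genes of this kind are mainly known from dividing cells.

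The start regions of these genes show where the peaks lie, and sequences are printed for the genes with a RefSeq promoter. The Ninl stretch and its motifs belong to the RefSeq start of Ninl, where the peak was not called, and not to the called peak at Nanp, whose sequence is not printed. RefSeq (GRCm38.p6, the assembly that mm10 names) gave a promoter for 3 of the 4 genes, all on the minus strand, and Champ1 is named only. The peak windows and the promoters share an assembly, and each sequence below is the 250 bases before the start, with matches to the searched motifs in capitals.
Pttg1, chr11:43425982-43426231: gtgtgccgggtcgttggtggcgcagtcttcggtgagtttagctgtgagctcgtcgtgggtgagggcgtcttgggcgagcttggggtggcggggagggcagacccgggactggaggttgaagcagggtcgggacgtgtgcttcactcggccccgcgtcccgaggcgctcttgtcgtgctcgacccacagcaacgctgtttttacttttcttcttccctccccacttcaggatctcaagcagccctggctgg
Spc25, chr2:69206214-69206463: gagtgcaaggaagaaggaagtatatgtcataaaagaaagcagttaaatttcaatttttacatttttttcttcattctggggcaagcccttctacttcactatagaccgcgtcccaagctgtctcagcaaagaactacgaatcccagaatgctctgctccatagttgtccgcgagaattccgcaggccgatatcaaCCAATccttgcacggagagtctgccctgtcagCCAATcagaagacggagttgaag
Ninl, chr2:151009399-151009648: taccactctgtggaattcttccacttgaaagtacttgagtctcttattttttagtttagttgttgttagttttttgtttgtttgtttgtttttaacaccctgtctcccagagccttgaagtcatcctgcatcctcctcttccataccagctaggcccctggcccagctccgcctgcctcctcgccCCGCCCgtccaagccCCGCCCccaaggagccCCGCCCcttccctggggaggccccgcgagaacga
Motifs were searched on both strands, and the first were forms of the cell cycle genes homology region (CHR), spelled TTTGAA in one form and with the letters TTCGAA in the other. The next were the CCAAT box, which the factor NF-Y binds, and the GC box of the SP1 family, with the letters GGGCGG. Sites of E2F factors were searched by the letters TTGGCGC for one form and by the letters TTCCCGC for another. The AP-1 site was searched as TGANTCA. No motif overlapped another in the printed stretches.

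In the Spc25 promoter CCAAT matched 2 times, its matches beginning 55 and 23 bases before the start of transcription. Of 32851 RefSeq promoters of the same length, 33.8% held CCAAT. The GC box matched 3 times in the Ninl promoter, on the opposite strand, and 32.7% of all promoters held it. The Pttg1 stretch held 0 matches to any of the motifs. It lay within the RefSeq bounds of the gene, which reach 43427463, and the bases before that boundary were not searched. TTTGAA was in 16.0% of all promoters and in none of these 3 stretches. A search that added the 50 bases after the start found TTTGAA in Spc25, beginning at base 25 of the transcribed part, where 17.9% of all promoters hold it in the longer window.
Spc25, chr2:69206172-69206201: ggcggtggagagTTTGAAattgaaagactg
In that window Spc25 also held a GC box across the start, with 1 of its bases before the start and 5 from it on, and Ninl held 1 more, beginning at base 3 of the transcribed part. CHR and CCAAT elements are known as features of many promoters active late in the cell cycle. The GC content of the 250 bases was 63.6% for Pttg1, 45.2% for Spc25 and 54.4% for Ninl, against a median of 52.4% over all promoters. The 3 promoters thus had no searched motif in common.

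The peaks were 601 bp wide in each table (mm10). After PPx, in the comparison of genotypes, the Pttg1 promoter peak lay at chr11:43425976-43426576 and covered the RefSeq start, with its centre 295 bp from it. RefSeq extends the Pttg1 gene beyond the peak, to a boundary 1.19 kb from the centre. The Spc25 peak lay at chr2:69205953-69206553, with its centre 40 bp from the start. The Champ1 peak lay at chr8:13869411-13870011, and the lower boundary of the RefSeq gene was inside it, 70 bp from the centre. All 3 were annotated by the authors as promoters within 1 kb of a start. Starts of the windows moved by 20 bp for Pttg1, 37 bp for Spc25 and 185 bp for Champ1 between tables.

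Ninl had promoter peaks in separate places. The peak with the largest signal lay at chr2:151039076-151039676 and was annotated as a Ninl promoter within 1 kb. RefSeq ends the Ninl gene at 151009411, which was 30.0 kb from the centre of that peak. The boundary of another RefSeq gene, Nanp at 151029685 to 151039379, lay 3 bp from the centre. Nanp encodes N-acylneuraminate-9-phosphatase, an enzyme of sialic acid synthesis. No peak of the deposited files was assigned to Nanp (0 of 41774). The second Ninl promoter peak, at chr2:151009014-151009614, covered the RefSeq Ninl start, with its centre 84 bp from it. A further Ninl peak lay in intron 1 of 23, at chr2:151000669-151001269. Pttg1 also had a pair of distal peaks beyond its 3' end, with centres 7.28 kb and 16.0 kb from the lower RefSeq boundary of the gene. Below, the peak at the Nanp boundary is called the Ninl/Nanp peak.

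**Figure D1:**
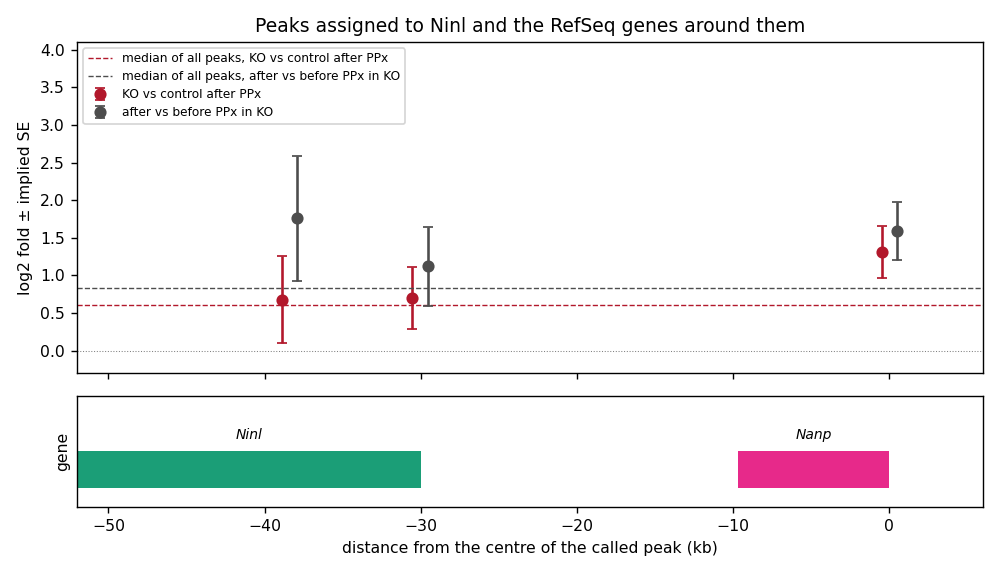
Log2 folds of the 3 peaks that the authors assigned to Ninl (upper panel, error bars are the implied standard errors) by distance in kb from the centre of the called Ninl/Nanp peak, with RefSeq gene bodies below. The called peak, at 1.31 and 1.59, stands at the boundary of Nanp, and the peak at the RefSeq start of Ninl, with its window 30.1 kb away, stands at 0.70 and 1.12, nearer to the dashed medians of all peaks.

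Values in the tables are group means of log2 normalised reads per peak (the concentration), and a fold is the difference of 2 group means, here always the first named group minus the second. Values per library and depth per library are unknown from these files, so spread is given only as a standard error implied by the deposited fold and p. Median signals of the tables were 13.7 to 16.2 normalised reads per peak. In bulk islets fewer open cells and less signal per cell cannot be told apart. No source used here gives the scaling, so a level is set only against others of its own table.

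The targeted gene had 1 listed peak, in exon 9 of 20 of Arid1a. In the authors' deposited table its concentration after PPx was 4.04 in KO-labelled and 0.40 in control islets, a log2 fold of 3.64 (FDR 0.00201). Before PPx it was 5.49 in KO-labelled and 1.21 in control islets (log2 fold 4.28 and FDR 0.00187 per the authors' deposited table). The exon that was floxed is not named in the sources used here, so the higher signal does not check the genotype labels, and the groups are called KO-labelled. Of 8 beta cell markers 4 had a listed peak after PPx (Ins1, Mafa, Nkx6-1 and Ucn3) and Ins2, Pdx1, Iapp and Slc2a2 had none. In the authors' deposited table the Ins1 promoter was at 5.62 in KO-labelled and 4.13 in control islets after PPx. Its log2 fold was 1.49, beside 1.05 at the Nkx6-1 promoter, 0.38 at the Mafa promoter and 0.05 at the Ucn3 promoter. The median of all peaks in that comparison was 0.61. Listed peaks of other cells after PPx covered 3 of 6 alpha cell, 2 of 5 delta and PP cell, 3 of 6 endothelial, 2 of 6 leukocyte, 2 of 5 stellate cell and fibroblast, 1 of 5 duct cell and 0 of 6 acinar markers. The summed signal of the listed beta cell peaks after PPx was 130.0 normalised reads in KO-labelled and 65.6 in control islets. That of alpha cell peaks was 58.5 in KO-labelled and 46.4 in control islets, that of endothelial peaks 77.9 in KO-labelled and 68.8 in control islets, and that of leukocyte peaks 27.2 in KO-labelled and 17.9 in control islets. Delta and PP cell peaks summed to 62.1 in KO-labelled and 37.7 in control islets, stellate cell and fibroblast peaks to 31.4 in KO-labelled and 21.2 in control islets, and duct cell peaks to 19.0 in KO-labelled and 15.8 in control islets. The part of cell composition in the results below was not tested.

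After PPx, the promoter peaks of all 4 genes, as the authors assigned them, had a higher signal in KO-labelled than in control islets. In the authors' deposited table the Pttg1 promoter was at 4.38 in KO-labelled and 2.20 in control islets, that is 20.8 and 4.59 normalised reads. The log2 fold of 2.18 (FDR 0.00701 and implied SE 0.45) was number 6 from the top among 13111 peaks of the authors' deposited table. The peak was called in 4 of 4 KO-labelled and 0 of 4 control libraries, so the calls of single libraries did not overlap between the groups, as at 222 of the 13111 peaks (1.69%). Spc25 stood at 5.13 in KO-labelled and 3.93 in control islets, or 35.0 and 15.2 normalised reads (log2 fold 1.20, FDR 0.0272 and implied SE 0.35 per the authors' deposited table). Its peak was called in 4 of 4 KO-labelled and 3 of 4 control libraries, so most control libraries had it too. Champ1 stood at 4.68 in KO-labelled and 3.61 in control islets, or 25.6 and 12.2 normalised reads (log2 fold 1.08, FDR 0.0436 and implied SE 0.38 per the authors' deposited table). The Ninl/Nanp peak was at 5.15 in KO-labelled and 3.85 in control islets, or 35.5 and 14.4 normalised reads (log2 fold 1.31, FDR 0.0214 and implied SE 0.35 per the authors' deposited table). Champ1 and the Ninl/Nanp peak were each called in 4 of 4 KO-labelled and 2 of 4 control libraries.

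These 4 peaks were the called ones among 8 member peaks of that comparison, at an FDR of 0.05 or below. Of all listed peaks 9.89% were called higher, and of listed promoter peaks within 1 kb 14.9%. Nothing is read from the members' count because the genes were picked on this contrast. The median log2 fold of all peaks was 0.61, and the 4 promoters exceeded it by 1.57 at Pttg1, 0.59 at Spc25, 0.47 at Champ1 and 0.70 at the Ninl/Nanp peak. With folds centred on that median, but errors left as implied by the uncentred p, 0 of the 4 were called, from which nothing is read. Adjusted over all listed peaks Champ1 was not called (adjusted value 0.0609, Benjamini-Hochberg).

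**Figure D2:**
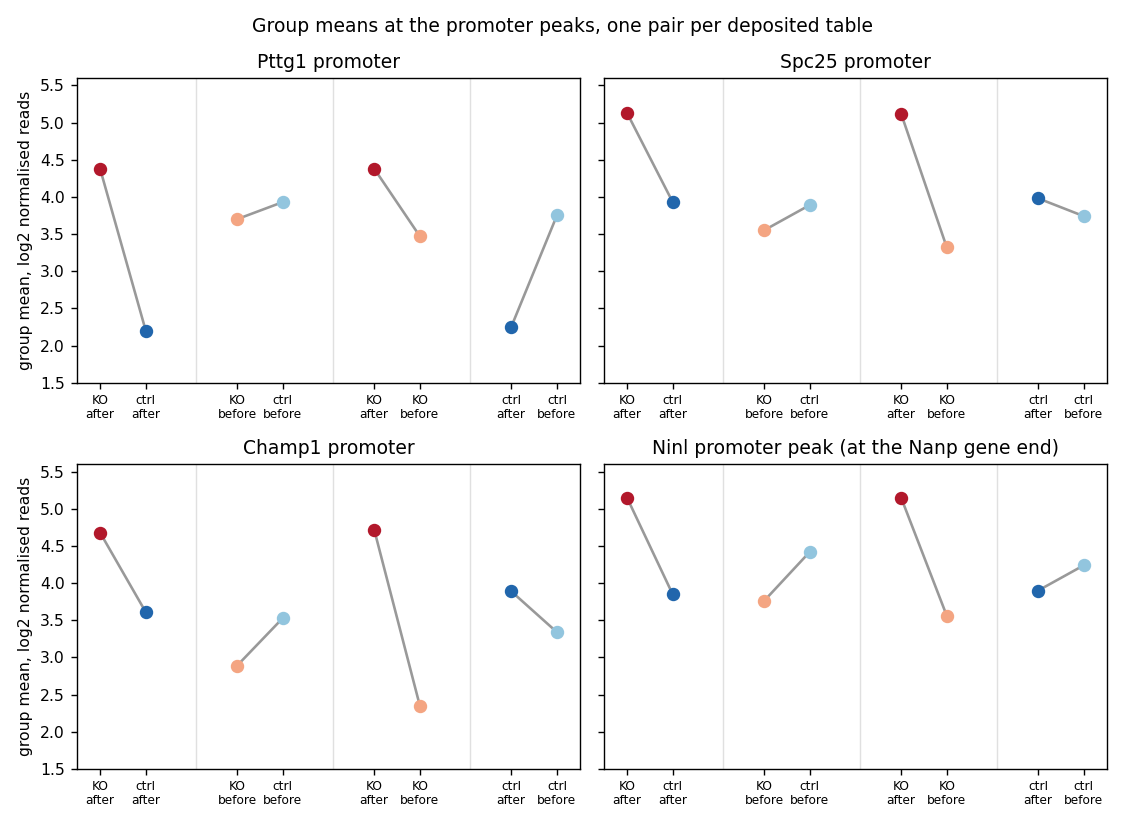
Group means in log2 normalised reads at the 4 promoter peaks, with 1 joined pair of points for each deposited table and the group named on the horizontal axis (KO is KO-labelled, ctrl is control). KO-labelled islets after PPx hold the highest point in both tables they enter at all 4 peaks, and the low point of Pttg1 is control islets after PPx, at 2.20 and 2.25.

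The other 4 member peaks after PPx had log2 folds between 0.42 and 0.70, beside the median of 0.61 over all peaks. At the RefSeq start of Ninl the signal was 4.17 in KO-labelled and 3.47 in control islets (log2 fold 0.70, FDR 0.163 and implied SE 0.41 per the authors' deposited table). In intron 1 of Ninl it was 3.10 in KO-labelled and 2.42 in control islets (log2 fold 0.68, FDR 1 and implied SE 0.58 per the authors' deposited table). The nearer distal Pttg1 peak had 2.87 in KO-labelled and 2.21 in control islets (log2 fold 0.66, FDR 1 and implied SE 0.59 per the authors' deposited table). The farther had 4.00 in KO-labelled and 3.58 in control islets (log2 fold 0.42, FDR 0.377 and implied SE 0.40 per the authors' deposited table). The distal peaks of Pttg1 thus stood at less than a log2 fold of 1 while its promoter was at 2.18, and this gap within the gene was not tested.

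Before PPx the order of the genotypes was the opposite at all 4 promoters, by folds that did not pass the authors' test. The Ninl/Nanp peak had 3.76 in KO-labelled and 4.42 in control islets (log2 fold -0.65, FDR 1 and implied SE 0.38 per the authors' deposited table). Champ1 had 2.89 in KO-labelled and 3.53 in control islets (log2 fold -0.64, FDR 1 and implied SE 0.58 per the authors' deposited table). At both promoters the fold was larger than its implied error. Spc25 had 3.55 in KO-labelled and 3.89 in control islets (log2 fold -0.34, FDR 1 and implied SE 0.43 per the authors' deposited table). The Pttg1 promoter had 3.70 in KO-labelled and 3.93 in control islets (log2 fold -0.24, FDR 1 and implied SE 0.47 per the authors' deposited table). At these promoters the fold was smaller than its implied error. Calls in single libraries overlapped between the groups, with Pttg1 called in 3 of 3 KO-labelled and 3 of 4 control libraries and Champ1 in 1 of 3 KO-labelled and 2 of 4 control libraries. Of the 4 member peaks listed here 0 were called, 0 at an unadjusted p under 0.05 and 0 by Benjamini-Hochberg adjustment over all peaks, beside 0.0128% of all peaks called higher and a median log2 fold of 0.00. Summed marker signal before PPx was 50.3 normalised reads in KO-labelled and 37.0 in control islets for beta cells, 47.1 in KO-labelled and 28.4 in control islets for delta and PP cells, and 18.3 in KO-labelled and 15.8 in control islets for stellate cells and fibroblasts. It was 22.4 in KO-labelled and 30.0 in control islets for alpha cells, and 19.3 in KO-labelled and 26.7 in control islets for endothelial cells, and the part of these in the folds was not tested. Only promoter peaks of the members were listed in this table, and the Ninl peak at the RefSeq start was not among them.

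Within KO-labelled islets the promoters of Champ1, Spc25 and the Ninl/Nanp peak had a higher signal after than before PPx. Champ1 was at 4.72 after and 2.35 before PPx, or 26.4 and 5.10 normalised reads (log2 fold 2.37, FDR 0.0114 and implied SE 0.53 per the authors' deposited table), the number 28 from the top of 12767 peaks. It was called in 4 of 4 libraries after and 1 of 3 before PPx. Spc25 was at 5.12 after and 3.32 before PPx, or 34.8 and 9.99 normalised reads (log2 fold 1.80, FDR 0.0192 and implied SE 0.42 per the authors' deposited table). The Ninl/Nanp peak was at 5.15 after and 3.56 before PPx (log2 fold 1.59, FDR 0.0230 and implied SE 0.39 per the authors' deposited table). Both were called in 4 of 4 libraries after and 2 of 3 before PPx. The Pttg1 promoter did not pass: it was at 4.38 after and 3.47 before PPx (log2 fold 0.91, FDR 0.111 and implied SE 0.46 per the authors' deposited table), which is close to the median of 0.83 over all peaks. Thus the gene with the largest fold between genotypes after PPx had the smallest of the 4 folds in this comparison.

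Of 8 member peaks 3 were called, beside 7.45% of all peaks and 9.94% of promoter peaks within 1 kb called higher, and again the count follows from how the genes were picked. Summed marker signal in these islets was 120.0 normalised reads after and 62.6 before PPx for beta cells, and 58.5 after and 33.3 before for alpha cells. It was 51.0 after and 28.3 before for endothelial cells, and 27.6 after and 13.7 before for leukocytes. For delta and PP cells it was 55.2 after and 39.3 before. It was 30.2 after and 20.3 before for stellate cells and fibroblasts, and 9.65 after and 5.98 before for duct cells. The part of these in the folds was not tested. The remaining Ninl peaks had log2 folds of 1.12 (implied SE 0.52, FDR 0.0904) at the RefSeq start and 1.76 (implied SE 0.83, FDR 1) in intron 1 in the authors' deposited table. The intron peak was low, at 3.10 after and 1.34 before PPx in the authors' deposited table, which is 8.57 and 2.53 normalised reads. The distal Pttg1 peaks had log2 folds of 1.17 (FDR 0.0886) at the farther and 0.57 (FDR 1) at the nearer in the authors' deposited table. Less the median of all peaks, the folds were 1.54 at Champ1, 0.97 at Spc25, 0.76 at the Ninl/Nanp peak and 0.08 at Pttg1, and 0 of them were called when centred in this way.

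Within control islets the 4 promoters did not share a direction. The Pttg1 promoter was at 2.25 after and 3.75 before PPx, or 4.76 and 13.5 normalised reads (log2 fold -1.51, FDR 0.999 and implied SE 0.48 per the authors' deposited table), the number 5 from the bottom of 8070 peaks. It was called in 0 of 4 libraries after and 3 of 4 before PPx, so the calls did not separate the groups fully. The Ninl/Nanp peak was at 3.90 after and 4.24 before PPx (log2 fold -0.34, FDR 0.999 and implied SE 0.32 per the authors' deposited table). Spc25 was at 3.98 after and 3.74 before PPx (log2 fold 0.25, FDR 0.999 and implied SE 0.40 per the authors' deposited table). Champ1 was at 3.89 after and 3.34 before PPx (log2 fold 0.55, FDR 0.999 and implied SE 0.47 per the authors' deposited table). The median log2 fold of all peaks was 0.16. In this comparison 0 of 6 member peaks were called, by the authors' test or by Benjamini-Hochberg adjustment, 1 had an unadjusted p under 0.05 (Pttg1), and 0% of all peaks were called higher. The peak at the RefSeq start of Ninl had a log2 fold of 0.44 and the farther distal Pttg1 peak 0.41 (FDR 0.999 for both) in the authors' deposited table.

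**Figure D3:**
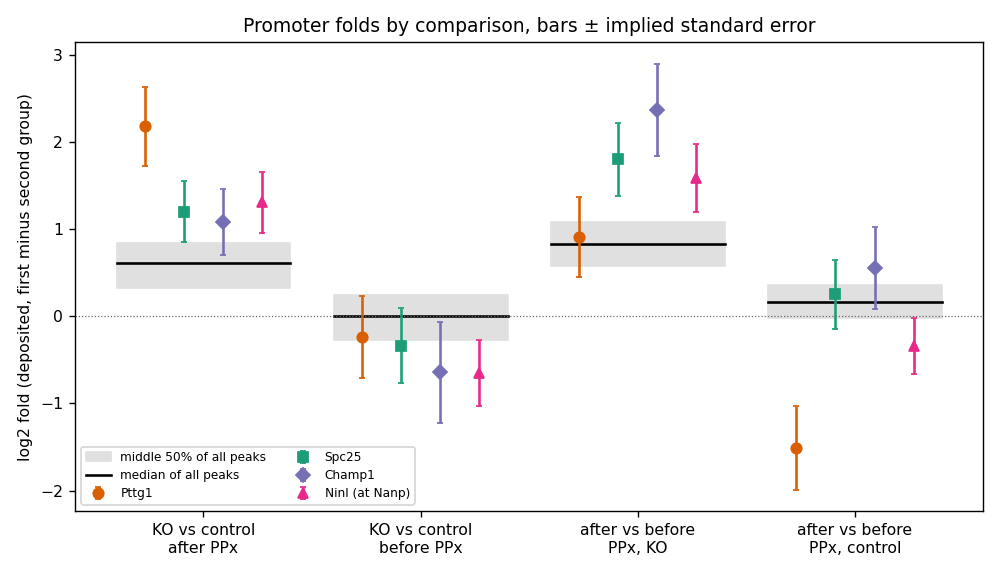
Deposited log2 folds of the 4 promoter peaks in each comparison (vertical axis, first minus second group), with bars of the implied standard error, over the median (line) and the middle 50% (band) of all peaks in that table. All 4 stand above the band after PPx in the genotype comparison, from 1.08 to 2.18, and below 0 before PPx, and Pttg1 alone stands at -1.51 in controls.

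Set side by side, the largest fold of a promoter was that between genotypes after PPx at Pttg1, and that of PPx in KO-labelled islets at the other 3. At Pttg1 control islets after PPx were low in both of their tables, at 2.20 beside 4.38 in KO-labelled islets after PPx, and at 2.25 beside 3.75 in control islets before PPx. At all 4 promoters KO-labelled islets after PPx were the higher group in both of their tables, and KO-labelled islets before PPx the lower group in both of theirs. KO-labelled islets before PPx and control islets after PPx share no table, so these groups are not ordered. The difference between the genotype effect after PPx and that before PPx was 2.42 log2 units at Pttg1 (implied SE 0.65), 1.96 at the Ninl/Nanp peak (0.52), 1.72 at Champ1 (0.70) and 1.54 at Spc25 (0.56), and it was not tested because the genes were picked for it. The median fold of all peaks was 0.61 after and 0.00 before PPx, and with each fold less its table's median the differences were 1.81 at Pttg1, 1.35 at the Ninl/Nanp peak, 1.11 at Champ1 and 0.93 at Spc25. Less the median of promoter peaks of like concentration they were 1.70 at Pttg1, 1.22 at the Ninl/Nanp peak, 0.99 at Champ1 and 0.73 at Spc25. The tables share libraries, since each group enters 2 of them, so these comparisons are not separate evidence. The same group differed by up to 0.54 between its tables, at Champ1 in KO-labelled islets before PPx, where the windows also differ. Among 4909 promoter peaks matched in all 4 tables, 2126 (43.3%) were above control after PPx and below control before PPx, as all 4 were. With a fold below 0 in controls as well, as at Pttg1 and the Ninl/Nanp peak, they numbered 901 of the 4909 (18.4%).

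Promoters with the most similar folds were found by the Euclidean distance between the 4 centred folds. Nearest to Pttg1 was Rfxap at a distance of 0.83, with log2 folds of 1.60 and -0.02 for the genotype effect after and before PPx and 0.65 and -1.03 for PPx in KO-labelled and control islets in the authors' deposited table. Hacd1, Slc22a23, Khdc4 and Rasa2 followed at distances of 0.97 to 1.18. Nearest to the Ninl/Nanp peak was Agtpbp1 at 0.18, followed by Dgcr8, Cpeb4, Fastkd1 and Zscan2 at up to 0.30. Spc25 was nearest to Iqgap1 at 0.31, then Yipf4, Dctn6, Thumpd3 and Lamp2 at up to 0.38. Champ1 was nearest to Arfip1 at 0.51, then Gpkow, Zfp970 and Abcc5, and Spc25 was the fifth at 0.72. The distances were larger around Pttg1 than around the other 3. Each is a description over 4 comparisons that share libraries.

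Peaks of other genes were listed within 50 kb of the Pttg1, Spc25 and Champ1 promoters, and 0 of them around the Ninl/Nanp peak. Upstream of Pttg1, 7.50 kb away, the promoter of Slu7, a splicing factor gene, was at 4.28 in KO-labelled and 3.18 in control islets after PPx (log2 fold 1.10 and FDR 0.0511 per the authors' deposited table). For controls after against before PPx no Slu7 peak was listed there. Near Spc25, the promoter of G6pc2, the islet glucose-6-phosphatase gene, was at 4.62 in KO-labelled and 4.06 in control islets after PPx (log2 fold 0.56 and FDR 0.246 per the authors' deposited table). In KO-labelled islets an intron peak of Nostrin, 35.6 kb from Spc25, was at 3.94 after and 2.13 before PPx (log2 fold 1.81 and FDR 0.0351 per the authors' deposited table), beside 1.80 at Spc25. Beside Champ1, the promoters of Coprs and Fbxo25 had log2 folds of 0.74 (FDR 0.183) and 0.64 (FDR 0.141) between genotypes after PPx in the authors' deposited table. After PPx, 0 of 9 neighbouring peaks of other genes were called between genotypes, beside 9.89% of all peaks called higher, so nothing is read from that count. The lowest FDR among them was 0.0507, at a distal peak of Gm12148 with a log2 fold of 0.96 per the authors' deposited table, next to that of Slu7.

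The other genes of mitosis were described with 7 lists of 193 genes, of which 189 were not among the 4 genes. After PPx 112 of the 189 had 136 listed peaks, of which 19 (14.0%) were called higher and 0 lower in KO-labelled than in control islets, against 9.89% of all peaks and 14.9% of promoter peaks. Their median log2 fold was 0.66, beside 0.61 for all peaks. Within KO-labelled islets 17 of 136 peaks (12.5%) were called higher and 0 lower after than before PPx, against 7.45% of all peaks and 9.94% of promoter peaks, with a median log2 fold of 0.87 beside 0.83. Before PPx, and in controls after against before PPx, 0 of 98 peaks were called in each comparison, with 2 and 1 at an unadjusted p under 0.05 and 0 by Benjamini-Hochberg adjustment. The 2 were Bub3, a spindle checkpoint gene with 4.43 in KO-labelled and 3.40 in control islets (log2 fold 1.03 and FDR 1 per the authors' deposited table), and Tubg1. The other was an intron of Akap9, with 3.76 after and 2.60 before PPx in controls (log2 fold 1.16 and FDR 0.999 per the authors' deposited table). Adjusted over all listed peaks, the called peaks numbered 9 between genotypes after PPx and 8 in KO-labelled islets, and centred on the median 0 in both. These shares lie near those of promoters, and nothing particular to mitosis genes is read from them.

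Among partners of securin, 3 of 16 peaks rose between genotypes after PPx, that is, stood higher in KO-labelled islets by the authors' test. They were the cohesin subunit genes Stag2 by 1.38 (FDR 0.0396) and Stag1 by 0.99 (FDR 0.0422), and Wapl, whose product releases cohesin, by 0.91 (FDR 0.0469), as log2 folds listed in the authors' deposited table. The Stag2 peak was called in only 1 of 4 KO-labelled and 1 of 4 control libraries. After against before PPx in KO-labelled islets 4 of 16 rose, Smc1a by 1.62, Mau2, a cohesin loader gene, by 1.37, Esco1, a cohesin acetyltransferase gene, by 1.17 and Stag1 by 1.14 on the log2 scale of the authors' deposited table. Of the anaphase-promoting complex and spindle checkpoint 2 of 14 peaks rose between genotypes after PPx, at the subunit genes Cdc16 by 1.44 (FDR 0.0268) and Anapc13 by 1.08 (FDR 0.0471) in the authors' deposited table. In KO-labelled islets 3 of 14 rose after PPx, Cdc16 by 1.49, Cdc26 by 1.37 and Anapc15 by 1.10 on the log2 scale of the authors' deposited table, all subunit genes of that complex. Stag1 and Cdc16 were thus called in both comparisons, which share the KO-labelled libraries after PPx. With Benjamini-Hochberg adjustment over all listed peaks, the cohesin list had 0 calls between genotypes and 1 in KO-labelled islets, and the anaphase-promoting complex and checkpoint list had 1 in each. Beside the counts of these lists, 9.89% of all peaks and 14.9% of promoter peaks were called higher between genotypes after PPx. In KO-labelled islets the shares were 7.45% and 9.94%.

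For the kinetochore and centromere, 3 of 27 peaks rose between genotypes after PPx, at Cenpn by 1.33 (FDR 0.0268), Cenpu by 1.08 (FDR 0.0357) and Cenpw by 0.88 (FDR 0.0471) in the authors' deposited table. These encode proteins of the inner kinetochore, and in KO-labelled islets 1 of 27 peaks rose after PPx, that of Cenpk, by 1.33 (FDR 0.0339) in the authors' deposited table. Spc24, which encodes the direct partner of SPC25, was not among the genes called in either of these comparisons. In controls it was at 4.00 after and 3.51 before PPx (log2 fold 0.49 and FDR 0.999 per the authors' deposited table). Of the CHAMP1, POGZ, HP1 and REV7 partners 1 of 11 peaks rose between genotypes after PPx, at Rev1, a translesion polymerase gene, by 1.13 (FDR 0.0337) in the authors' deposited table. In KO-labelled islets 2 of 10 rose after PPx, Rev1 by 1.54 (FDR 0.0282) and an intron peak of Shld1, a shieldin subunit gene, by 1.68 (FDR 0.0484) in the authors' deposited table. Adjusted over all listed peaks, the kinetochore list had 2 calls between genotypes and 1 in KO-labelled islets, and the CHAMP1 partner list had 1 in each. The Rev1 promoter in controls had 3.21 after and 3.83 before PPx (log2 fold -0.62 and FDR 0.999 per the authors' deposited table). Shares called higher between genotypes after PPx were 9.89% of all peaks and 14.9% of promoter peaks. They were 7.45% and 9.94% in KO-labelled islets.

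For the centrosome and microtubule nucleation, 6 of 32 peaks rose between genotypes after PPx. Nin, the gene of ninein, the relative of NINL, was at 4.37 in KO-labelled and 2.99 in control islets (log2 fold 1.39 and FDR 0.0265 per the authors' deposited table). Its peak was called in 4 of 4 KO-labelled and 0 of 4 control libraries, as at 222 of all 13111 peaks (1.69%). Others in the authors' deposited table were the augmin gene Haus6 by 1.08, the ciliary gene Lca5 by 1.02, Plk4, the kinase of centriole duplication, by 1.03, the gamma-tubulin complex gene Mzt1 by 0.89 and the centriole gene Cep120 by 0.82. In KO-labelled islets 5 of 34 rose after PPx, Nin by 1.66, an exon of Akap9 by 1.48, the centriolar satellite gene Pcm1 by 1.32, Haus7 by 1.24 and Tubgcp5 by 1.21 on the log2 scale of the authors' deposited table. Before PPx the lowest p of this list was at Tubg1, the gamma-tubulin gene, with 2.89 in KO-labelled and 3.98 in control islets (log2 fold -1.09 and FDR 1 per the authors' deposited table). Of mitotic entry, spindle motors, condensin and cytokinesis 3 of 26 peaks rose between genotypes after PPx, Smc4 by 1.02, Pkmyt1 by 1.15 and Ccna2 by 0.98 in the authors' deposited table, and 1 of 26 in KO-labelled islets, Ncapg2 by 1.20. Smc4 and Ncapg2 encode condensin subunits, Pkmyt1 an inhibitory kinase of CDK1, and Ccna2 cyclin A2. Of the DREAM and B-MYB-FOXM1 regulators 1 of 10 peaks rose between genotypes after PPx and 1 of 9 in KO-labelled islets, in both at Lin37, a subunit gene of the complex that holds cell cycle genes off, by 0.97 (FDR 0.0470) and 1.34 (FDR 0.0406) in the authors' deposited table. Adjusted over all listed peaks, the centrosome list had 3 calls in each comparison. The mitotic entry list had 2 between genotypes after PPx and 0 in KO-labelled islets, and the DREAM list had 0 between genotypes and 1 in KO-labelled islets. Without that adjustment, 9.89% of all peaks and 14.9% of promoter peaks were called higher between genotypes after PPx. In KO-labelled islets these shares were 7.45% and 9.94%.

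**Figure D4:**
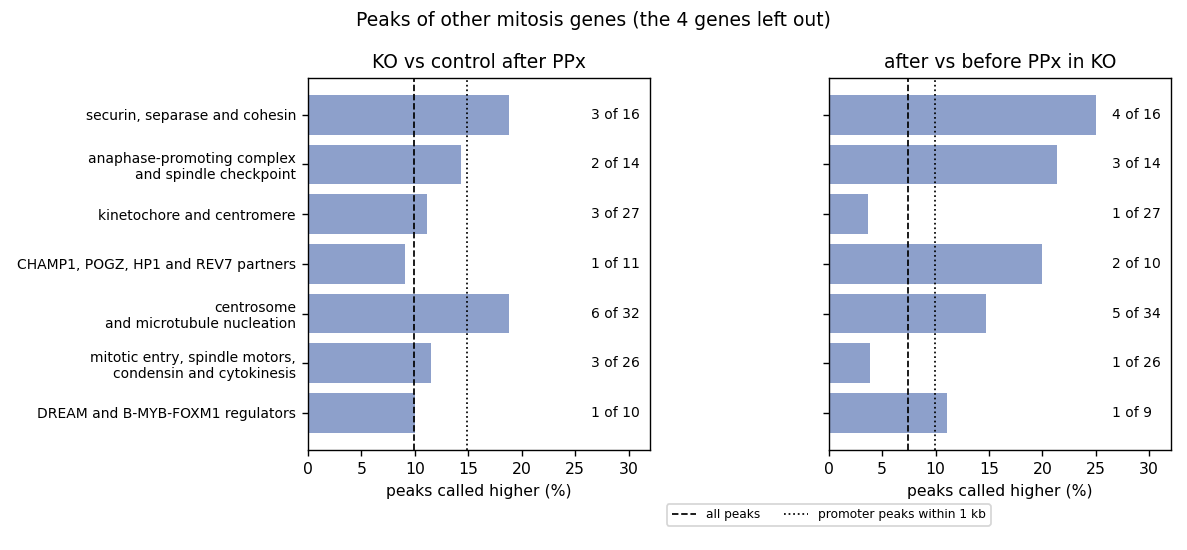
Share of listed peaks called higher at the authors' FDR of 0.05 in each of 7 lists of mitosis genes, without Pttg1, Spc25, Champ1 and Ninl, for KO-labelled against control islets after PPx (left) and after against before PPx in KO-labelled islets (right). The counts stand beside the bars, and the dashed and dotted lines mark all peaks (9.89% and 7.45%) and promoter peaks within 1 kb (14.9% and 9.94%).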

How the data were processed

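The data are ATAC-seq libraries of islet cells from 15 mice, each made from 40000 cells and read as single ends of 75 bp, per the labels' protocols. The submitters' processing notes name cutadapt, BWA, MACS, DiffBind, ChIPseeker and mm10, without versions, roles or settings. The authors deposited 4 tables, and the log2 concentrations in them are group means of normalised reads. The deposited fold is the difference of 2 group means on the log2 scale. The deposited p-value and FDR come from a test that is not named in the file headers. The deposited counts of called libraries give, per group, how many libraries had the peak.

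Fully repeated rows (5281, 1197, 4588 and 1337 of the tables of genotype after PPx, genotype before PPx, PPx in KO-labelled and PPx in control islets) and 1 blank row were removed, which left 13111, 7826, 12767 and 8070 peaks. Each fold was turned to read as the first named group minus the second. An implied standard error is the size of the fold over the normal deviate that its two-sided deposited p stands for, or, where the fold is below 0.1 or p at least 0.95, the median of its bin among 40 bins of concentration; their medians were 0.38 to 0.49. They hold only if that p measures the spread between libraries. Depth per library, left-out libraries and values per mouse are not analysed here, since the files hold group means. Called means an FDR of at most 0.05 in the authors' test. In the tables with KO-labelled islets after PPx, many peaks have an FDR of 1, some of them beside a small p. They were 4534 of 13111 peaks between genotypes, with concentrations up to 8.06. After against before PPx in KO-labelled islets they were 2669 of 12767, with concentrations up to 3.30. These peaks are counted in the shares of all peaks called.

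Peaks that shared 1 bp or more were matched between tables. The gene lists, motifs and members were chosen with earlier results of these data known. Named genes are the 4 genes, up to 6 called genes per list and comparison (otherwise the lowest p, of which a few are printed), Arid1a, and the 5 most similar promoters of each gene by distance, without Gm, Rik and Mir symbols. Rfxap to Zscan2 follow that rule, and neighbours and markers were taken by distance and list. Sequences are from RefSeq. Python 3.11.15, pandas 2.3.3 and scipy 1.17.1 were used. The implied standard error, the Benjamini-Hochberg adjustment and the centred calls were tested on simulated folds with a constant error. The planted changes were larger than any centred fold of the members, so smaller changes were not tried. Matching, lists, motifs and distances were not tested in this way.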

Additional observations from a re-analysis of the deposited data

How the results depend on the processing

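No paired analysis was possible because the tables hold group means and the labels give no replicate numbers shared between groups; for the same reason no library could be left out. Calls rested on the threshold and on the shift of the whole table. Between genotypes after PPx 4 member peaks were called as deposited, 4 at an FDR of 0.1, 3 with Benjamini-Hochberg adjustment over all listed peaks, 1 at an FDR of 0.01 and 0 with folds centred on the table's median. After against before PPx in KO-labelled islets the counts were 3 as deposited, 5 at an FDR of 0.1, 3 adjusted over all listed peaks, 0 at an FDR of 0.01 and 0 centred. For the mitosis lists, the 4 genes included, 23 and 20 called peaks in these comparisons became 12 and 11 adjusted over all listed peaks, 1 and 0 at an FDR of 0.01, and 0 and 0 centred. In the other comparisons the counts were 0 under every alternative run.

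Centring kept the direction of each called promoter fold. The difference of the genotype effect after and before PPx, with each fold less the median of all peaks, was 1.81 at Pttg1 in place of 2.42, 0.93 at Spc25 in place of 1.54, 1.11 at Champ1 in place of 1.72 and 1.35 at the Ninl/Nanp peak in place of 1.96. Less the median of promoter peaks of like concentration it was 1.70 at Pttg1, 0.73 at Spc25, 0.99 at Champ1 and 1.22 at the Ninl/Nanp peak. The number of searched motifs found in the Spc25 promoter was 1, and 3 with the 50 bases after the start, a window chosen after seeing the data. An overlap of at least 50% gave the same matches, and keeping repeated rows left the share of called peaks within 1.5 times. The cause of these changes was not tested beyond what the alternatives are built from.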
